A study of Mus musculus with 13 samples.

Results

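Nuclear receptors of muscle and the proteins that supply or enhance their signals were followed here in mouse quadriceps. The set holds 10 genes chosen by name, with earlier results of these data known. They are the thyroid hormone receptors Thra and Thrb, the deiodinase Dio2, the vitamin D receptor Vdr and the retinoid X receptors Rxra and Rxrg. The others are the fatty acid receptors Ppara and Ppard, the orphan receptor Esrra and the coactivator Ppargc1a. On the array, 18 of 45037 non-control probe sets named 1 of these genes and no other, and they covered 9 of the 10 genes. Of these, 14 passed the filter on dim probe sets, a mean log2 signal of at least 4.904 over all 13 arrays, and entered the tests with 22519 probe sets in all. The 4 under the filter were both Vdr probe sets and 2 of the 3 Dio2 probe sets. All 5 probe sets that named Ppargc1a also named Asic2, an acid-sensing ion channel gene. They are described as the probe sets annotated to Ppargc1a and Asic2 together, and no level is given for Ppargc1a alone.

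The study used 13 arrays of quadriceps muscle from male C57Bl/6 mice aged 4 months and kept on standard chow. The groups were SKM-KO with 3 arrays, C with 3, SKM-Tg with 4 and Wt with 3. The design asks what ablation and gain of function of DOR do to muscle gene expression. DOR is an earlier name of Trp53inp2. From the names, SKM-KO was read as the ablation, set against C, and SKM-Tg as the gain of function, set against Wt. The labels state neither this pairing nor the promoter, recombinase or allele used. Each array is labelled as the muscle of a mouse with no mention of pooling, and if some samples are not separate animals, the p-values measure only the spread between these samples.

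Nuclear receptors are transcription factors that bind DNA beside their target genes and switch those genes when a small lipid-soluble ligand occupies them. The thyroid hormone, vitamin D and fatty acid receptors work as pairs with a retinoid X receptor, and Dio2 turns the prohormone thyroxine into the active hormone inside the cell. Esrra has no known natural hormone and works largely through coactivators; Ppargc1a encodes the coactivator that joins Esrra, the fatty acid receptors and the thyroid receptors to genes of mitochondria, fat oxidation and slow fibres. The protein of Trp53inp2 takes part in forming autophagosomes and is also known as a coactivator of thyroid hormone and vitamin D receptors.

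Many of these receptors bind variants of the half-site AGGTCA, so promoter windows of the receptor genes themselves are shown for Rxra and Ppard, the tested members with the largest differences between the lines, and for Rxrg and Thrb, which hold a match. The windows come from RefSeq on build GRCm38.p6 and hold 250 bases before and 50 bases after a transcript start. They were searched on both strands for AGGTCA, and matches are printed in capitals (TGACCT is the half-site on the other strand). Of the 10 genes, 9 had at least 1 window (Thra had none), 12 windows in all.
Rxra, chr2:27709042-27709341, plus strand: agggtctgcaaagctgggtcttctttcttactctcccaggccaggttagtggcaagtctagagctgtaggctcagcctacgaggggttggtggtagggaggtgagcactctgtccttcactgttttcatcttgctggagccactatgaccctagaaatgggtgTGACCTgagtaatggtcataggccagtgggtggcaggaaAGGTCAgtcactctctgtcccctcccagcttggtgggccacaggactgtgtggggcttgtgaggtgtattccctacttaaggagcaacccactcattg
Rxrg, chr1:167618015-167618314, plus strand: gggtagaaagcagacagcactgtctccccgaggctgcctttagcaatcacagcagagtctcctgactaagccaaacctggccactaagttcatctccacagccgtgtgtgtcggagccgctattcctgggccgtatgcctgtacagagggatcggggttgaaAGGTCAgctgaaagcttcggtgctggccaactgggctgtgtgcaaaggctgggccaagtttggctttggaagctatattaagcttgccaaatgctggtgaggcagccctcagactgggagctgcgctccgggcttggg
Thrb, chr14:17660710-17661009, plus strand: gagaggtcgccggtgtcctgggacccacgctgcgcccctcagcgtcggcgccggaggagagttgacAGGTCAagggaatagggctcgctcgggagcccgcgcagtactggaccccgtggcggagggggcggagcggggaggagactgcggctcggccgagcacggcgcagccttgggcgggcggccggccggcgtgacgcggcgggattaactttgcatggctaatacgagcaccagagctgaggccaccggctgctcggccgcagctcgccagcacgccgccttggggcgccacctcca
Ppard, chr17:28232504-28232803, plus strand: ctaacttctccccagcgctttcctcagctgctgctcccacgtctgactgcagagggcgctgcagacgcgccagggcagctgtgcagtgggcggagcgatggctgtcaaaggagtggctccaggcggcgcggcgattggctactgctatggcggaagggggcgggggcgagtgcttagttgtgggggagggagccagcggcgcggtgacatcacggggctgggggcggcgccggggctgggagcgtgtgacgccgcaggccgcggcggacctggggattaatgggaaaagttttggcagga
The half-site stood in 3 of the 12 windows (25%), those printed for Rxra, Rxrg and Thrb, and in 16.3% of all 32851 windows of the same length. Rxra, Rxrg and Thrb have 2 windows each, and the window of each that is not printed holds no match. The printed Rxra window holds 2 matches, and the Ppard window holds none. A match is a description of the letters and not a binding site.

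Before the members, 3 properties of the arrays bear on every result. First, Trp53inp2 had log2 signals of 8.58, 8.79 and 8.99 in SKM-KO, against 11.06, 11.19 and 11.15 in C. It fell by 2.35 on the log2 scale (SE 0.11, limma adjusted p 0.00177), and the groups do not overlap. In SKM-Tg it stood at 11.11, 11.03, 11.28 and 11.24, against 11.20, 11.46 and 11.0 in Wt, a difference of -0.06 (95% interval -0.39 to 0.27) with overlapping groups. Where this probe set lies relative to the transgene is not given, so it checks the SKM-KO label but not the SKM-Tg label. Second, Wt 2 and Wt 3 stand apart: 8.25% and 6.53% of the probe sets tested differed by more than 1 log2 unit from the other Wt arrays, against 0.0488% to 0.613% on the other 11 arrays. Wt 3 correlated at 0.987 to 0.992 with the SKM-KO and C arrays, but at 0.907 with Wt 2 and 0.974 with Wt 1. Wt 2 was far from the SKM-KO and C arrays too, at 0.900 to 0.907. SKM-Tg 1 correlated at 0.981 to 0.989 with the SKM-KO and C arrays and at 0.966 to 0.989 with the other SKM-Tg arrays. The median SD within a group was 0.103 in SKM-KO, 0.0996 in C, 0.178 in SKM-Tg and 0.262 in Wt. The last concerns markers of other cells. The mean of 10 skeletal muscle markers lay between 12.12 and 12.34 on every array. The mean of the 4 measured fat cell markers ran from 6.55 to 7.86 in SKM-KO, against 6.65 to 6.88 in C, and from 7.73 to 8.97 in SKM-Tg, against 6.74 to 7.93 in Wt. The mean of 4 Schwann cell markers ran from 6.92 to 7.46 in SKM-KO, against 6.79 to 6.89 in C. In SKM-KO, median differences of the macrophage, fibroblast, endothelial, brown fat, smooth muscle and satellite cell markers were 0.20, 0.12, -0.04, -0.0043, -0.03 and -0.03. In SKM-Tg they were -0.29, -0.21, -0.33, 0.13, -0.01 and -0.34 in the same order. The numbers of genes tested were 7, 4, 7, 3, 5 and 1, so the satellite cell values are of 1 gene. SKM-Tg was split for 2 of these lists. The endothelial mean was 8.13, 8.11, 8.68 and 8.57 in SKM-Tg, against 8.67, 8.74 and 8.64 in Wt. The macrophage mean was 5.36, 5.47, 6.10 and 5.98 in SKM-Tg, against 6.03, 6.16 and 5.66 in Wt. The part of other cells in the members' values was not tested.

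In SKM-KO muscle no member changed past the threshold relative to C. Limma called 0 of the 14 members at an adjusted p under 0.05, and 0 of them had an unadjusted p under 0.05. Of all 22519 probe sets, 2 were called (0.00888%) and 580 (2.58%) had an unadjusted p under 0.05. The 2 were Trp53inp2 and Wdfy1, a gene of endosomal signalling named after its values were seen. Wdfy1 stood at 7.08 ± 0.13 in SKM-KO and 5.73 ± 0.18 in C (SD, n = 3 each; limma adjusted p 0.0497). The members' differences ran from -0.14 for Rxrg to 0.27 for a Ppara probe set, with a median of 0.02, against 0.01 over all probe sets. For every member the SKM-KO and C arrays overlapped, while 7.29% of all probe sets did not overlap. Outside Ppara, the 95% intervals of the members tested lay between -0.43 (Rxrg) and 0.41 (Dio2), and every member's adjusted p was 0.9999. After median centring 1 probe set was called, and with each array left out in turn 0 (without SKM-KO 2) or 1. These arrays are of whole muscle, so fewer cells of a type and less RNA per cell cannot be told apart in any value.

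In SKM-Tg muscle no member changed past the threshold relative to Wt either. Limma called 0 of the 14 members and 0 of 22519 probe sets (0%), while 584 of all probe sets (2.59%) and 0 members had an unadjusted p under 0.05. The members' differences ran from -0.33 for Rxrg to 0.34 for a Ppara probe set, with a median of -0.08, against -0.03 over all probe sets. Thrb was the 1 tested member whose SKM-Tg arrays all lay below the Wt arrays, a separation found in 2.38% of all probe sets. The intervals were wide, from -1.02 to 0.36 for Rxrg, and the values move with the Wt arrays that stand apart. The Rxrg difference of -0.33 was -0.70 without Wt 3 and 0.04 without Wt 2, and the Rxra difference of -0.10 was -0.33 and 0.09 in the same order. Of the 3 fat cell markers tested, 0 were called or had an unadjusted p under 0.05. Their differences had a median of 0.86, and Fabp4, the fatty acid carrier of fat cells, stood at 0.02. Adipoq, the fat cell hormone adiponectin, stood at 7.66, 9.84, 8.12 and 8.52 in SKM-Tg, against 6.31, 8.75 and 5.12 in Wt, with overlapping groups (limma adjusted p 0.959). 

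**Figure D1:**
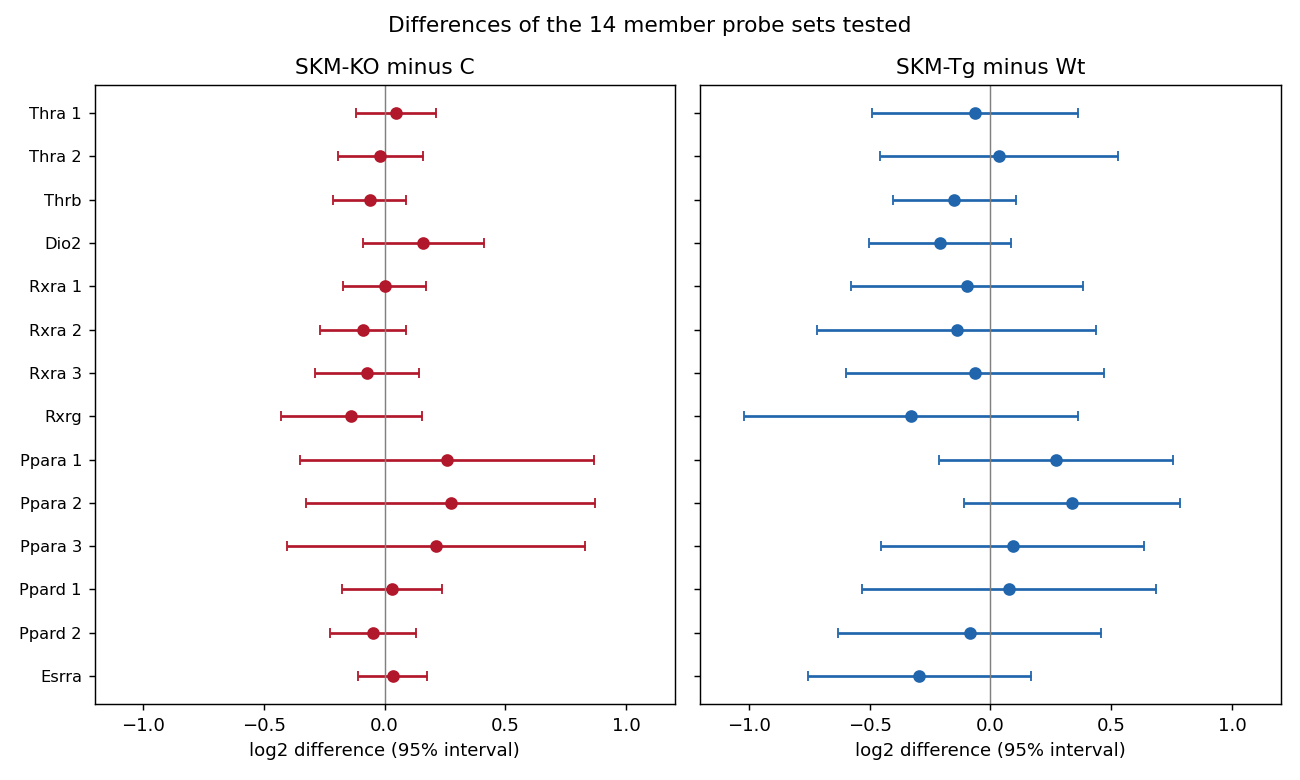
Differences in log2 signal of the 14 member probe sets tested, with 95% intervals, for SKM-KO minus C on the left and SKM-Tg minus Wt on the right; probe sets of a gene are numbered from the brightest. Every interval spans 0, and the intervals of SKM-KO minus C are narrower for all genes but Ppara, where they reach 0.87.

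The 2 effects were also set against each other in one fit of all 13 arrays. Of the members, 0 were called, and of all probe sets 1 (0.00444%), Trp53inp2. Dio2 was the 1 member with an unadjusted p under 0.05, against 2.71% of all probe sets. Its difference of effects was -0.37 (SE 0.17, unadjusted p 0.0476, limma adjusted p 0.996).

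**Figure D2:**
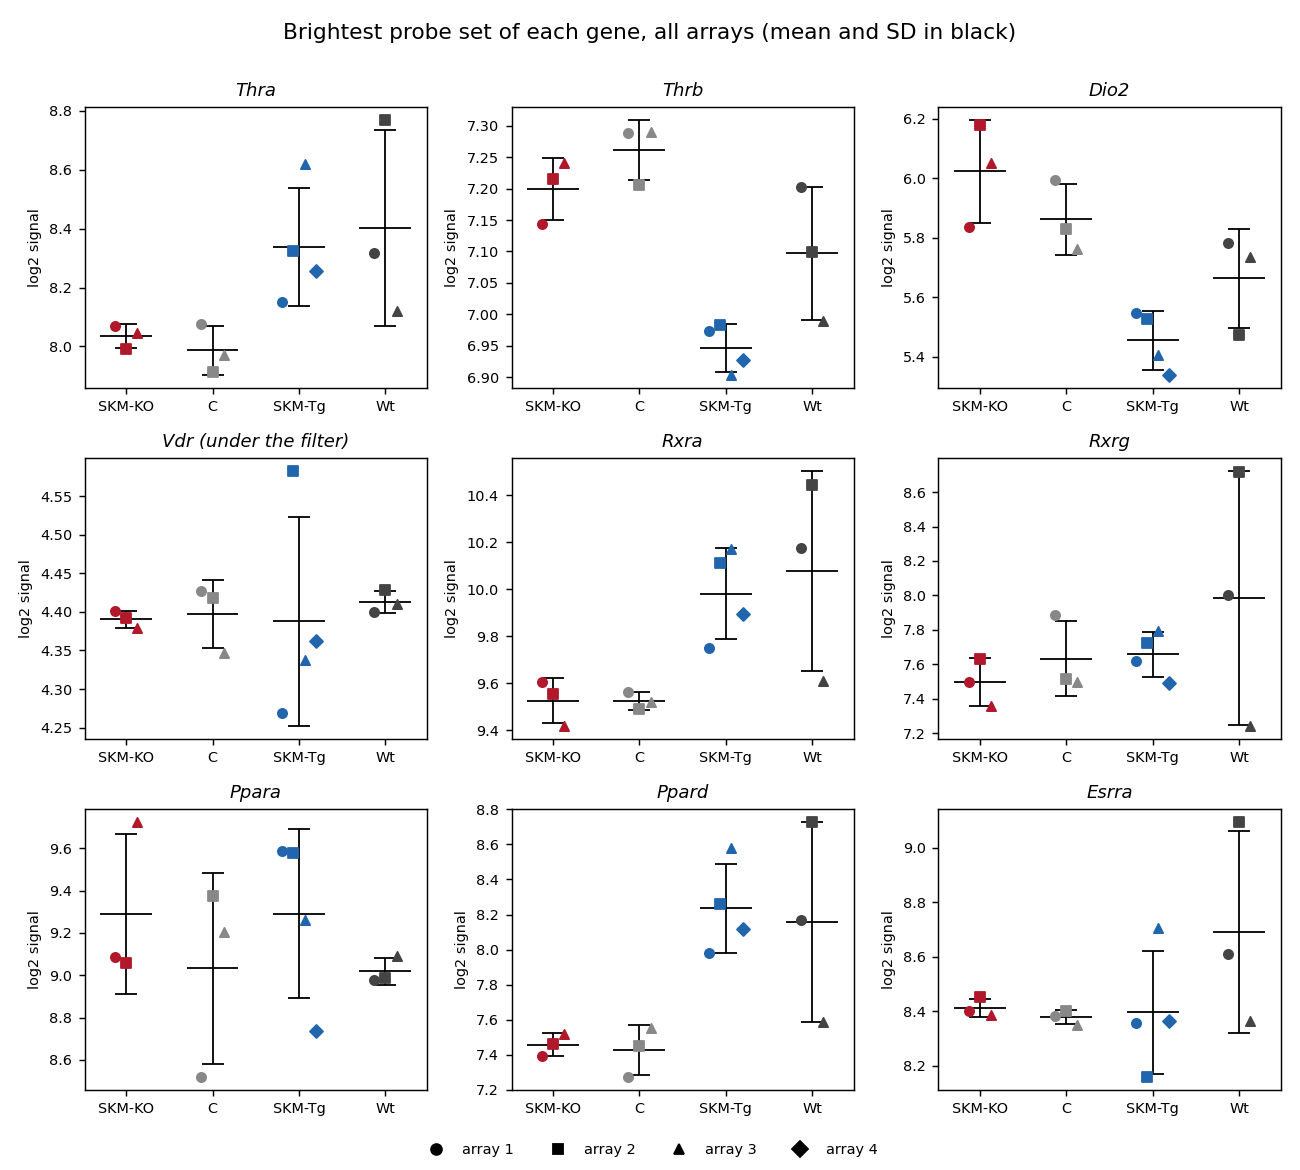
Log2 signal on each of the 13 arrays for the brightest probe set of 9 genes, grouped as SKM-KO, C, SKM-Tg and Wt; marker shapes number the arrays, and black bars show the mean and SD. SKM-KO and C lie close together for Thra, Rxra, Ppard and Esrra, while Wt spreads widely; the scales differ between panels.

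Among the thyroid hormone genes, Thra encodes the receptor type that predominates in muscle and heart. Its brighter probe set gave 8.07, 7.99 and 8.05 in SKM-KO, against 8.08, 7.91 and 7.97 in C. It gave 8.15, 8.32, 8.62 and 8.26 in SKM-Tg, against 8.32, 8.77 and 8.12 in Wt. The differences were 0.05 (SE 0.07) in SKM-KO and -0.06 (SE 0.19) in SKM-Tg, and both pairs of groups overlap. The second Thra probe set lay between 6.30 and 7.05 on all arrays and differed by -0.02 (SE 0.07) and 0.03 (SE 0.21). Its deviations from the group means correlated with those of the brighter probe set at r = -0.16 over 13 arrays and at r = 0.39 over the 11 arrays without Wt 2 and Wt 3.

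Thrb, the other thyroid hormone receptor, was measured by 1 probe set. It stood at 7.14, 7.21 and 7.24 in SKM-KO, against 7.29, 7.21 and 7.29 in C. In SKM-Tg it stood at 6.97, 6.98, 6.90 and 6.93, against 7.20, 7.10 and 6.99 in Wt. The lowest Wt array, Wt 3, stood next to the highest SKM-Tg array, so the separation is narrow. The difference was -0.15 in SKM-Tg (SE 0.11, limma adjusted p 0.959) and -0.06 in SKM-KO (SE 0.06).

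Dio2, which makes active thyroid hormone, had 1 probe set above the filter. It gave 5.84, 6.18 and 6.05 in SKM-KO, against 5.99, 5.83 and 5.76 in C, a difference of 0.16 (SE 0.11). It gave 5.55, 5.53, 5.41 and 5.34 in SKM-Tg, against 5.78, 5.47 and 5.73 in Wt, a difference of -0.21 (SE 0.13). All SKM-Tg arrays lie below all SKM-KO and C arrays, and Wt 2 lies among the SKM-Tg arrays. The dim probe sets had means of 4.11 and 3.26 in SKM-Tg and 4.32 and 3.46 in Wt, and both differed by -0.21; the dimmer one had an unadjusted p of 0.0407 and groups that do not overlap. These probe sets lie under the filter and had no part in the adjusted p-values. Without the filter, 1346 of 45037 probe sets had an unadjusted p under 0.05 in SKM-Tg minus Wt.

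Vdr, the vitamin D receptor, was under the filter with both of its probe sets. The brighter one lay between 4.27 and 4.58 on all arrays, and the dimmer one between 3.77 and 4.29. In the fit of all probe sets without the filter, their differences were -0.01 and 0.08 in SKM-KO and -0.03 and -0.19 in SKM-Tg, with 0 calls. All SKM-Tg arrays of the dimmer one lay just below the Wt arrays (limma unadjusted p 0.078). Of the probe sets that passed the filter, 2.38% separated in this way. Of the 8 vitamin D targets on a list, 2 passed the filter: S100g and Cyp24a1, at 0.06 and -0.08 in SKM-KO and -0.0053 and -0.0044 in SKM-Tg.

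Rxra, the retinoid X receptor present in most tissues, was measured by 3 probe sets. The brightest gave 9.61, 9.56 and 9.42 in SKM-KO, against 9.57, 9.49 and 9.52 in C. It gave 9.75, 10.11, 10.17 and 9.89 in SKM-Tg, against 10.18, 10.44 and 9.61 in Wt. SKM-KO and C thus overlap closely, while Wt 2 holds the highest value of the series and Wt 3 a value at the SKM-KO level. In SKM-KO the 3 differences were 0.0011, -0.09 and -0.07 (SE 0.07 to 0.09). In SKM-Tg they were -0.10, -0.14 and -0.06 (SE 0.21 to 0.25).

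Rxrg, the retinoid X receptor enriched in skeletal muscle, gave 7.50, 7.63 and 7.36 in SKM-KO, against 7.88, 7.52 and 7.50 in C. It gave 7.62, 7.73, 7.80 and 7.49 in SKM-Tg, against 8.0, 8.72 and 7.24 in Wt. The highest and the lowest array of the whole series were both Wt. The differences were -0.14 (SE 0.12) in SKM-KO and -0.33 (SE 0.30) in SKM-Tg.

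Ppara switches on fat oxidation genes when fatty acids are plentiful. Its brightest probe set gave 9.08, 9.06 and 9.73 in SKM-KO, against 8.52, 9.37 and 9.20 in C. It gave 9.59, 9.58, 9.26 and 8.74 in SKM-Tg, against 8.98, 8.99 and 9.09 in Wt. The spread lay within the groups: the SD was 0.38 in SKM-KO, 0.45 in C and 0.40 in SKM-Tg, against 0.06 in Wt. The 3 Ppara probe sets differed by 0.26, 0.27 and 0.21 in SKM-KO (SE 0.26 each) and by 0.27, 0.34 and 0.09 in SKM-Tg (SE 0.20 to 0.24). The size in SKM-KO rests on single C arrays: without C 1 the 3 differences were 0.0005, 0.03 and -0.06, and without C 2 0.43, 0.46 and 0.39. The deviations of the 3 probe sets from the group means moved together, with r between 0.87 and 0.99 over 13 arrays.

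Ppard, the fatty acid receptor best known in muscle for endurance fibres, was measured by 2 probe sets. The brighter one gave 7.39, 7.46 and 7.52 in SKM-KO, against 7.27, 7.45 and 7.55 in C. It gave 7.98, 8.26, 8.58 and 8.12 in SKM-Tg, against 8.17, 8.73 and 7.58 in Wt. All SKM-Tg arrays lay above all SKM-KO and C arrays, and Wt 3 lay just above the highest C array. The differences were 0.03 (SE 0.09) in SKM-KO and 0.08 (SE 0.26) in SKM-Tg. The dimmer probe set differed by -0.05 (SE 0.08) and -0.09 (SE 0.24).

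Esrra, a driver of mitochondrial genes, gave 8.40, 8.45 and 8.38 in SKM-KO, against 8.38, 8.40 and 8.35 in C. These arrays overlap closely, and the difference was 0.03 (SE 0.06, 95% interval -0.11 to 0.18). It gave 8.36, 8.16, 8.70 and 8.36 in SKM-Tg, against 8.61, 9.09 and 8.37 in Wt. That difference was -0.29 (SE 0.20), with overlapping groups, and it was -0.46 without Wt 3 and -0.09 without Wt 2.

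The 5 probe sets annotated to Ppargc1a and Asic2 together varied widely among the SKM-KO and C arrays. The brightest gave 7.37, 8.98 and 9.26 in SKM-KO, against 7.43, 8.77 and 8.45 in C. It gave 7.41, 7.48, 7.26 and 7.40 in SKM-Tg, against 7.50, 7.34 and 7.15 in Wt. SKM-KO 1 and C 1 thus lay at the level of SKM-Tg and Wt, while the other arrays of SKM-KO and C were all above 8.4. The 5 differences ran from 0.32 to 0.40 in SKM-KO (SE 0.47 to 0.61) and from -0.01 to 0.29 in SKM-Tg (SE 0.13 to 0.26), and 0 were called. Without SKM-KO 1 they ran from 0.90 to 1.05, and without C 1 from -0.07 to 0.09, so single arrays set their size. SKM-KO 1 and C 1 carry neighbouring mouse numbers in the labels, which do not say what the numbers mark. With neighbouring numbers as a block, added after seeing the data, the 5 differences had SEs of 0.16 to 0.19 and adjusted p-values of 0.907 (limma). The 1 probe set naming Asic2 alone was dim, at 3.94 on average. A further probe set, annotated to Ccnt2 and Asic2 together, averaged 7.78. Its means were 8.11 in SKM-KO, 8.14 in C, 7.67 in SKM-Tg and 7.23 in Wt. The 5 joint probe sets moved together with r between 0.89 and 0.99, and which gene gives their signal was not tested.

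The slow fibre marker mean, over 6 genes such as the slow myosin Myh7, was 11.48, 11.45 and 11.93 in SKM-KO, against 10.72, 11.93 and 11.70 in C. The 6 markers' median difference was 0.17 in SKM-KO (6 of 6 positive, 0 called) and -0.18 in SKM-Tg (0 of 6 positive, 0 called). Over all 10411 genes tested by their brightest probe set, 5622 differences were positive in SKM-KO and 3940 in SKM-Tg. The marker mean was 11.25, 10.94, 11.38 and 11.31 in SKM-Tg, against 11.28, 11.53 and 11.35 in Wt. C 1 had the lowest mean, and was also the lowest C array for Ppara and for the joint probe sets. SKM-KO 1 was low for the joint probe sets and close to SKM-KO 2 for the markers. The part of fibre type in these values was not tested.

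**Figure D3:**
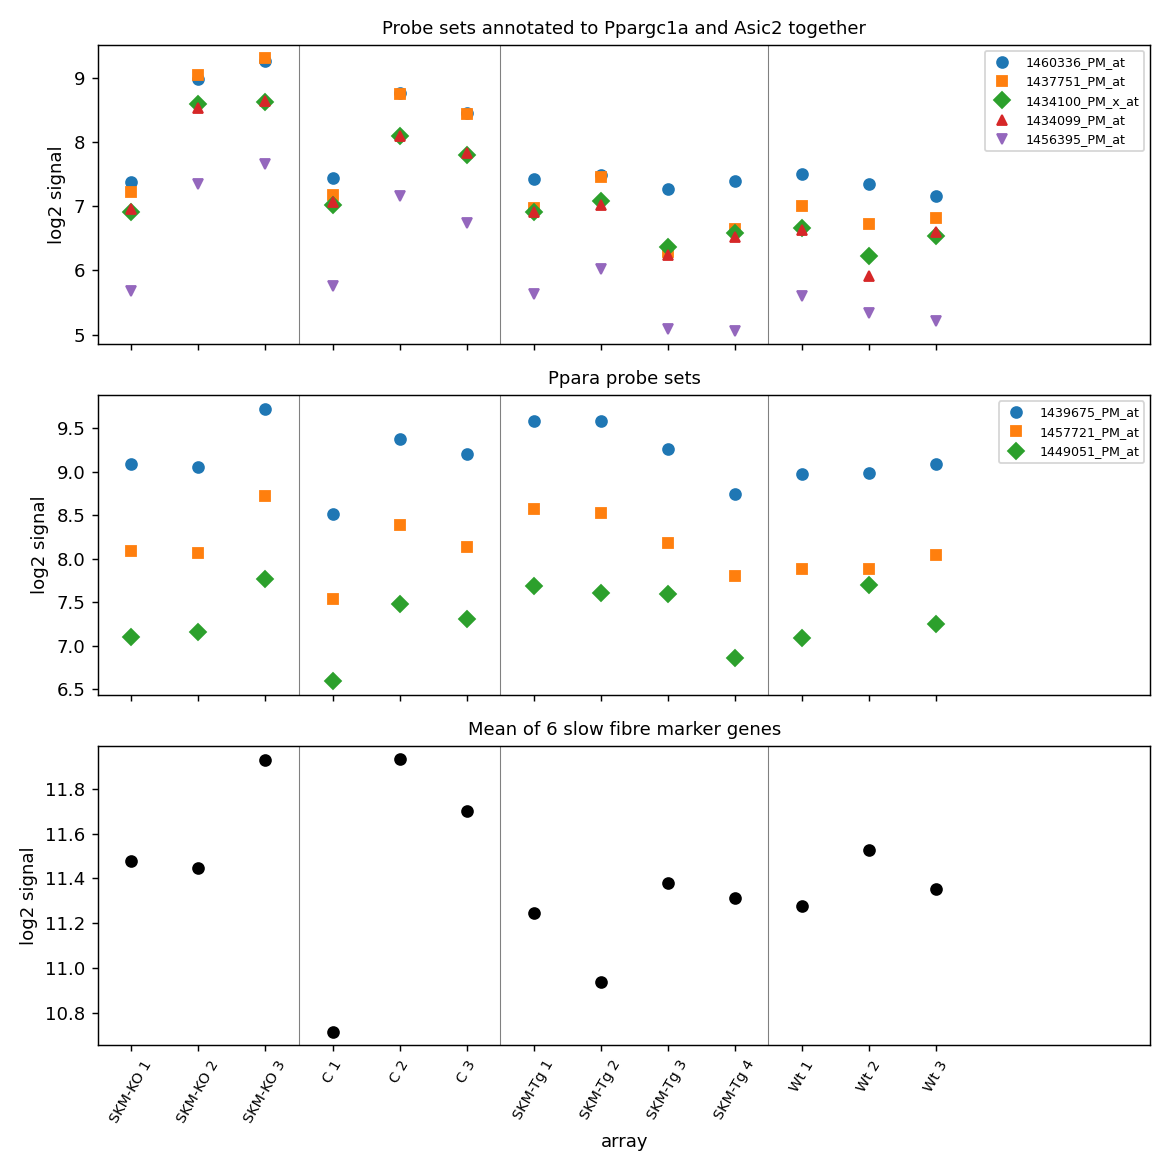
Log2 signals by array of the 5 probe sets annotated to Ppargc1a and Asic2 together (top), of the 3 Ppara probe sets (middle) and of the mean of 6 slow fibre markers (bottom); lines part SKM-KO, C, SKM-Tg and Wt. The brightest joint probe set stands at 7.37 in SKM-KO 1 and 7.43 in C 1 and at 8.45 or more in the other SKM-KO and C arrays, while C 1 has the lowest value for all Ppara probe sets and for the marker mean.

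Among the 14 members tested, which leave out the joint probe sets, Rxra and Ppard had the smallest p-values between the control groups. In Wt minus C, the comparison of the control groups, limma called 0 of 14 members and 0 of 22519 probe sets (0%). An unadjusted p under 0.05 was found for 5 of the 14 members and for 12.3% of all probe sets, 7.15% on the higher side. The 5 were the 3 Rxra probe sets, at 0.55, 0.64 and 0.65 (SE 0.21 to 0.27), and both Ppard probe sets, at 0.73 and 0.74 (SE 0.28 and 0.25), each with an adjusted p of 0.368. They are probe sets of 2 genes and not independent of each other. The joint probe sets stood at -0.89 to -1.29 in the same comparison. Their unadjusted p-values were 0.0048 to 0.0332, with an adjusted p of 0.368 (limma). Without Wt 3, 4697 probe sets (20.9%) were called in Wt minus C, among them 4 members, 2 of Rxra and 2 of Ppard. Of the joint probe sets, 2 were called in that fit.

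A contrast added after seeing the data set SKM-Tg and Wt together against SKM-KO and C. It called 8 of 14 members and 3158 of all probe sets (14%). Its spread was taken from all groups together, though their median SDs ran from 0.0996 in C to 0.262 in Wt. The members were chosen with earlier results of these data known, and some are probe sets of the same gene. The shares are therefore descriptions. Higher in SKM-Tg and Wt were the brighter Thra probe set (0.36, SE 0.11), all 3 Rxra probe sets (0.50, 0.62 and 0.65, SE 0.12 to 0.15) and both Ppard probe sets (0.76 and 0.72, SE 0.16 and 0.14). Lower were Thrb (-0.21, SE 0.06) and Dio2 (-0.38, SE 0.08). The adjusted p-values lay between 0.0215 and 0.0466, close to the threshold. All 5 joint probe sets were lower, by -1.02 to -1.48 (adjusted p 0.0251 to 0.0398). Rxrg (0.26, SE 0.19), Ppara and Esrra (0.15, SE 0.12) were not called.

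These calls depend on single arrays, while the signs of the called members did not change when 1 array was left out. When each array was left out in turn, the number of members called ran from 0 to 9 and that of all probe sets from 22 to 9849; 0 members were called without SKM-KO 2, SKM-KO 3, C 2 or C 3, 1 without SKM-Tg 3 or Wt 1, and 9 without Wt 3. Over the same fits, the difference ran from 0.41 to 0.62 for the brightest Rxra probe set, from 0.49 to 0.76 and from 0.50 to 0.74 for the other Rxra probe sets, from 0.61 to 0.90 and from 0.59 to 0.84 for the Ppard probe sets, from 0.27 to 0.43 for Thra, from -0.43 to -0.34 for Dio2 and from -0.24 to -0.18 for Thrb. For the joint probe sets it ran from -1.81 to -0.84, and in the brightest of them from -1.31 to -0.84. Leaving out Wt 2 and Wt 3 together gave 7 members and 4869 probe sets (21.6%), with Rxra at 0.55 and Ppard at 0.76; Thrb, at -0.16, was then not called (adjusted p 0.11). On the raw values, 5 of 14 members had no overlap between the 7 arrays of SKM-Tg and Wt and the 6 arrays of SKM-KO and C, against 5.66% of all probe sets. These were the brighter Thra probe set, 2 Rxra probe sets and both Ppard probe sets, all higher in SKM-Tg and Wt. Probe sets of the same gene are not independent of each other. The members were also chosen with earlier results of these data known, so this share is a description. The brighter Ppard probe set ran from 7.58 to 8.73 (median 8.17) in SKM-Tg and Wt, against 7.27 to 7.55 (median 7.46) in SKM-KO and C. No label gives a batch or a processing date, so the line and any batch that goes with it cannot be told apart.

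Within the groups, several members varied together. After each group mean was subtracted, the brightest probe sets of Thra, Rxra, Rxrg, Ppard and Esrra correlated pairwise at r between 0.72 and 0.89 over 13 arrays (10 pairs). The shared direction is that of the Wt arrays: all 5 were highest in Wt 2 and lowest in Wt 3 within Wt. Without those arrays the same 10 pairs ran from 0.06 to 0.71 over 11 arrays, so the higher values rest on them. The Ppara probe sets correlated with the joint probe sets at r between 0.40 and 0.72, and 0.54 to 0.74 without Wt 2 and Wt 3. The brightest Ppara probe set varied little in Wt (SD 0.06), so leaving out Wt arrays is a weak check of these pairs. C 1, the lowest C array for both, stayed in. All these points share arrays and their normalization, and the correlations are descriptions.

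**Figure D4:**
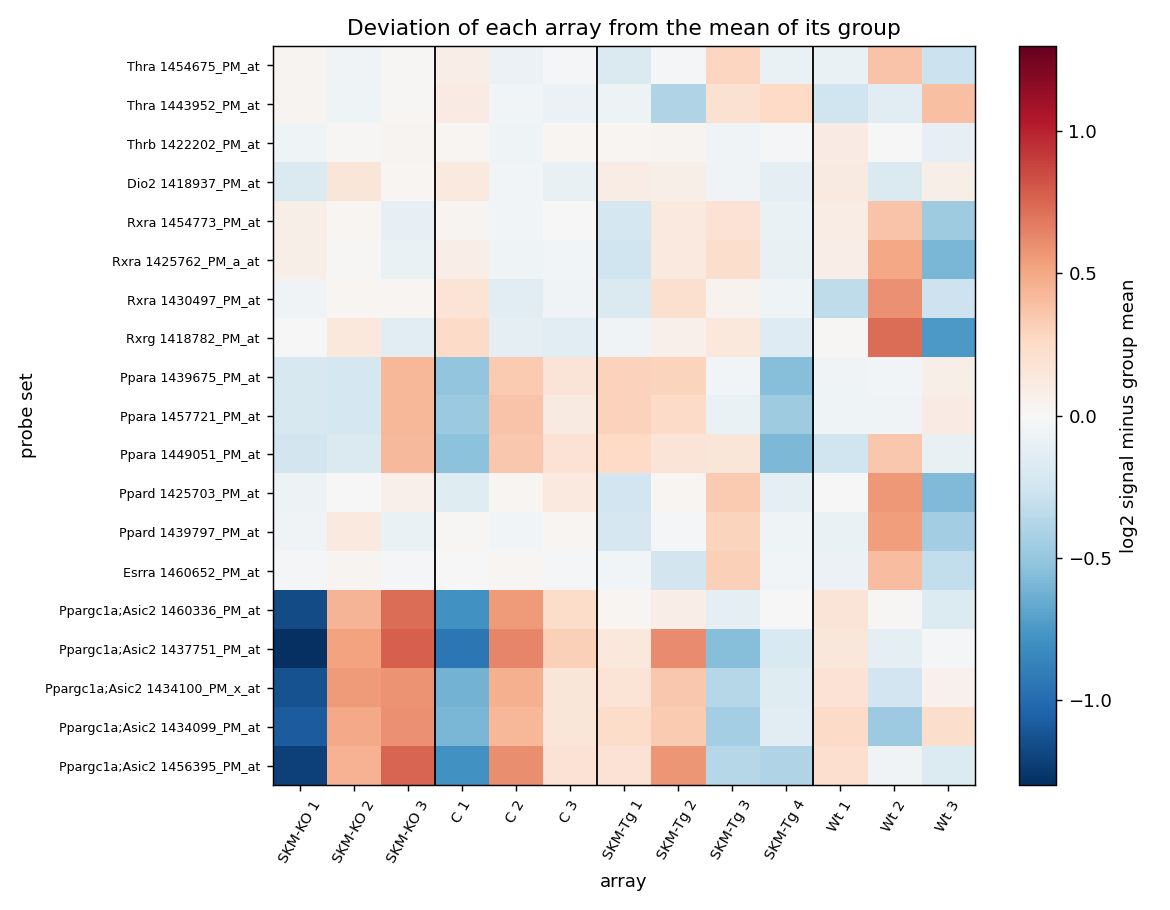
Deviation of each array from the mean of its group, in log2 units, for the 14 member probe sets tested and the 5 joint probe sets; columns are the arrays of SKM-KO, C, SKM-Tg and Wt, red is above and blue below the group mean. Wt 2 is above and Wt 3 below the Wt mean for Rxra, Rxrg, Ppard and Esrra, and SKM-KO 1 and C 1 are lowest for the joint probe sets.

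The genes whose deviations were most like those of each member were found among 10411 genes by Pearson's r over the 13 arrays. For Rxrg these were Cacnb1 (0.99), Plpp7 and Praf2, for Ppard Map2k5 (0.99), Wdr83os and Eif2b4, and for Rxra Mcm3 (0.98), Sars and Rtn2. For Thra they were Pld4 (0.99), Prr12 and Sac3d1, and for Esrra Alas2 (0.98), Plscr3 and Sf3b5. Cacnb1 encodes a subunit of the muscle calcium channel and Alas2 the first enzyme of haem synthesis in red cells. For these 5 members r was between 0.89 and 0.97 without the 2 arrays farthest from the member's median. Those arrays were Wt 2 and Wt 3 for Rxra, Rxrg and Ppard. For Thra and Esrra they were Wt 2 and SKM-Tg 3, so Wt 3 stayed in. The like genes were picked by r on the same arrays, so high values remain likely and are no independent check. Ppara was most like Gm19439 (0.93), Ppp1r3c, a glycogen-targeting subunit of a phosphatase, and Synj2; Dio2 most like Tbc1d1 (0.90), a regulator of glucose transporter traffic, 1110032A03Rik and Krtap21-1. Thrb was most like Itgav (0.84), Vps13b and Akap6, and r fell to between 0.61 and 0.68 without Wt 1 and Wt 3. The brightest joint probe set was most like Sulf2 (0.92), Pam and Creld2, with 0.68 to 0.76 left without SKM-KO 1 and C 1.

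The surrounding pathways were read from lists, each gene by its brightest probe set, and 0 of the 152 list genes tested passed the threshold in SKM-KO minus C or in SKM-Tg minus Wt. Of all 10411 genes so tested, 1 was called in SKM-KO minus C and 0 in SKM-Tg minus Wt, with medians of 0.0077 and -0.05 and with 5622 (54%) and 3940 (37.8%) positive differences, against which the counts of each list are read. Other nuclear receptors had 24 genes tested, 10 positive in SKM-KO with a median of -0.03 and 8 positive in SKM-Tg with a median of -0.08. In SKM-Tg the smallest p-values belonged to the orphan receptors Nr4a3 (-0.73, SE 0.30, unadjusted p 0.042) and Esrrg (-0.41, SE 0.18, unadjusted p 0.0472), then Nr4a1 (-0.61) and Esrrb (-0.61). In SKM-KO they belonged to the clock receptor Nr1d2 (-0.15), Nr4a3 (0.31), the bile acid receptor Nr1h4 (0.16) and Nr2c1 (0.10). Nr4a3 means were 6.10 in SKM-KO, 5.79 in C, 5.91 in SKM-Tg and 6.64 in Wt, so Wt stood highest. Esrrg, the relative of Esrra rich in slow muscle, gave 7.94, 7.40, 7.90 and 7.72 in SKM-Tg, against 8.15, 7.92 and 8.38 in Wt, groups that overlap at 1 array.

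Coactivators and corepressors other than Ppargc1a had 14 genes tested, with medians of 0.01 in SKM-KO (9 positive) and -0.05 in SKM-Tg (5 positive). Perm1, a muscle-specific regulator downstream of Ppargc1a and Esrra, gave 7.95, 7.76, 8.38 and 8.29 in SKM-Tg, against 8.62, 9.02 and 8.41 in Wt. Its difference was -0.59 (SE 0.20, unadjusted p 0.0202), and the groups do not overlap, though 8.38 and 8.41 lie close together. Ppargc1b, the close relative of Ppargc1a, stood at -0.50 (SE 0.19, unadjusted p 0.0302), with all SKM-Tg arrays below all Wt arrays. The separation is narrow, with 7.56 in SKM-Tg 3 and 7.60 in Wt 1. Ppargc1b means were 7.20 in SKM-KO, 7.06 in C, 7.24 in SKM-Tg and 7.74 in Wt, so Wt was the group that stood apart. Ncoa4 and Pprc1 differed by -0.20 and -0.33 in SKM-Tg. In SKM-KO the smallest p-values were those of Lpin1 (0.13), Ppargc1b (0.14), Med1 (0.09) and Carm1 (-0.08), with unadjusted p-values of 0.162 to 0.34. In SKM-Tg minus Wt, Perm1, Ppargc1b, Ncoa4 and Pprc1 had a limma adjusted p of 0.959.

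Target genes of the receptors gave no calls either. Of 13 thyroid hormone targets tested, 10 were positive in SKM-KO (median 0.03) and 6 in SKM-Tg (median -0.03). Gpd2, the mitochondrial glycerol phosphate dehydrogenase, gave 9.83, 10.05, 9.71 and 9.83 in SKM-Tg, against 9.60, 8.98 and 9.49 in Wt, a difference of 0.50 (SE 0.17, unadjusted p 0.0206). Klf9, Myh4 and Atp2a1 stood at 0.23, -0.10 and -0.07 there, and Ucp3, Atp2a2, Myh2 and Gpd2 at 0.11, 0.28, 0.06 and -0.15 in SKM-KO. Of 20 PPAR targets tested, 18 were positive in SKM-KO (median 0.06) and 5 in SKM-Tg (median -0.04). In SKM-KO, Plin5, which coats lipid droplets beside mitochondria, gave 10.73, 10.61 and 10.75, against 10.31, 10.52 and 10.58 in C, a difference of 0.23 (SE 0.09, unadjusted p 0.0365). Acot1, Acadl and Ehhadh, enzymes of fatty acid metabolism, stood at 0.37, 0.11 and 0.26. The list's mean was lowest in C 1, at 9.33, with 9.52 to 9.54 in SKM-KO and 9.49 and 9.52 in the other C arrays. In SKM-Tg, Mlycd, Cpt1b, Plin2 and Angptl4 stood at -0.37, -0.22, -0.26 and -0.27.

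Of 22 targets of the ERR receptors and of Ppargc1a, 7 were positive in SKM-KO (median -0.01) and 5 in SKM-Tg (median -0.07). Vegfa, the vessel growth factor, stood at -0.39 in SKM-Tg (SE 0.15, unadjusted p 0.0356), followed by Nrf1 (-0.23), Mfn2 (-0.17) and Tfb2m (0.37). In SKM-KO, Idh3a, Mfn2, Gabpa and Nrf1 stood at -0.10, 0.06, 0.04 and -0.06. Of the 7 endothelial markers, 7 had negative differences in SKM-Tg, with a median of -0.33. Their mean was low in SKM-Tg 1 and SKM-Tg 2 (8.13 and 8.11). SKM-Tg 3 and SKM-Tg 4 (8.68 and 8.57) were close to Wt (8.64 to 8.74). The part of these markers in the Vegfa value was not tested. Of 5 targets of retinoic acid and LXR receptors, Crabp2, Dhrs3, Tgm2 and Cyp26b1 stood at -0.17, 0.08, 0.03 and 0.01 in SKM-KO and at 0.02, -0.14, -0.06 and 0.09 in SKM-Tg. Of the genes for thyroid hormone transport and conversion, Crym, which binds the hormone in the cytosol, and the amino acid transporter gene Slc7a5 stood at 0.24 and 0.08 in SKM-KO and at -0.04 and -0.35 in SKM-Tg.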

How the data were processed

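RNA of 13 quadriceps samples was amplified (25 ng), labelled with biotin and hybridised to Affymetrix mouse expression arrays, per the labels' protocols. The authors deposited 1 table of log2 signals per probe set, summarised by RMA per the submitters' processing notes (no version is given). RMA fits background, quantile normalization and probe effects over all arrays together, so arrays share a distribution (array medians 4.85 to 4.94). Depth has no counterpart on arrays, and the number of arrays limits the precision. No 2 arrays were copies (highest correlation 0.9948).

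Of 45141 probe sets, 104 controls were left out. The platform annotation gave 28898 probe sets 1 symbol, 551 several and 15588 none; levels are not compared between probe sets. Probe sets with a mean at or above the median of all non-control probe sets (4.904) were tested with limma 3.58.1 in R 4.3.3 (lmFit, eBayes), with Benjamini-Hochberg adjustment over 22519 probe sets and a threshold of 0.05. Each comparison was fitted on its own groups, and the difference of effects and the contrast of the lines on all 13 arrays. The steps were tested on simulated data with independent noise on each array and large shifts. That simulation does not bear on deviations shared across an array or on small differences. Replicate numbers follow the order of deposit. The titles carry mouse numbers, and no label says what they mark or gives a batch.

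The member genes and all lists were chosen with earlier results of these data known. List genes were named when past the threshold, or among the 4 smallest p-values of a list in SKM-KO minus C or SKM-Tg minus Wt, and 3 like genes were named per member. Of 214 list symbols, 184 had a probe set and 152 were tested; list genes and likeness used each gene's brightest probe set. Promoter windows were read from RefSeq. Alternatives covered normalization, filter, feature, variance model, array weights, a joint fit, a block of neighbouring mouse numbers and leaving out arrays.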

Additional observations from a re-analysis of the deposited data

Results flagged for a closer look

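Outlying arrays were looked for in SKM-Tg, the 1 group with 4 arrays, over 24 probe sets, where chance marks about 1 in 20. In SKM-Tg 4 the dimmest Dio2 probe set stood at 3.16, below 3.28 to 3.29 on the other SKM-Tg arrays, and it lies under the filter. In SKM-Tg 4 the dimmest Ppara probe set stood at 6.85, below 7.59 to 7.69 on the other SKM-Tg arrays. The other Ppara probe sets were also lowest in SKM-Tg 4, at 8.74 and 7.81. For Trp53inp2, the SKM-Tg minus Wt difference exceeded the SKM-KO minus C difference by 2.29 (SE 0.19, limma adjusted p 5.87e-04). It was the 1 call in that comparison. The call restates the fall of the ablated gene in SKM-KO (-2.35), as SKM-Tg minus Wt was -0.06.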

How the results depend on the processing

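Of 670 values of member probe sets under the alternatives, 597 kept their direction and side of the threshold and 25 passed it in addition. No call could be lost, as the main fits called 0 members. Passes with array weights and in the contrast of both groups of each line are among the 25. That contrast is a different quantity from Wt minus C. The sign changed in 17 values outside the leave-one-out fits and in 31 within them, and the cause was not tested. In SKM-KO minus C, 1 probe set was called in place of 2 after median centring, without the filter and with the brightest probe set per gene, and 0 to 1 on leaving out an array (0 to 0 members). In SKM-Tg minus Wt, array quality weights, which stopped before their tolerance in 3 of 4 comparisons, gave 4183 probe sets and 4 members in place of 0, and leaving out an array 0 to 1 probe sets and 0 to 0 members. In the difference of effects there were 2 calls without the filter, with the brightest probe set or with the mean of the probe sets of each gene, 1395 and 1 member with array weights, and 1 to 2 (0 to 0 members) on leaving out an array. In Wt minus C there were 14936 and 9 members with array weights, 4 in one fit of all groups, 48 in that fit without Wt 2 and Wt 3 (Wt 1 alone remains and is assumed to vary like the other groups), 3158 and 8 members with both groups of each line, and 0 to 4697 (0 to 4 members) on leaving out an array. In SKM-KO minus C, the sign changed for the brightest Rxra probe set with quantile normalization (-0.018), the mean of the probe sets (-0.054) and array weights (-0.0092), for the brighter Ppard probe set with the mean (-0.0079) and weights (-0.017), and for the second Thra probe set with weights (0.016). In SKM-Tg minus Wt it changed for the brighter Thra probe set with quantile normalization (0.0037) and without Wt 2 and Wt 3 (0.021), for the brighter Ppard probe set with the mean (-0.0047), for the dimmest Rxra probe set with weights (0.30) and without Wt 2 and Wt 3 (0.27), and for the dimmer Ppard probe set without both (0.0034). In Wt minus C it changed for the brightest Ppara probe set with the mean (0.040), for the second Thra probe set with weights (-0.16) and without Wt 2 and Wt 3 (-0.20), and for the dimmest Ppara probe set in the same fits (-0.15 and -0.039). Leaving out each array, the differences that changed sign ran, in SKM-KO minus C, from -0.057 to 0.038 (second Thra), -0.038 to 0.055 (brightest Rxra), -0.14 to 0.017 (dimmest Rxra), -0.056 to 0.39 (dimmest Ppara) and -0.044 to 0.096 (brighter Ppard). In SKM-Tg minus Wt they ran from -0.21 to 0.12 and -0.094 to 0.23 (Thra), -0.33 to 0.087, -0.43 to 0.11 and -0.23 to 0.23 (Rxra), -0.70 to 0.035 (Rxrg), -0.036 to 0.29 (dimmest Ppara), and -0.21 to 0.36 and -0.31 to 0.19 (Ppard). In Wt minus C they ran from -0.14 to 0.19 (second Thra), -0.010 to 0.73 (Rxrg) and, for Ppara, -0.27 to 0.16, -0.33 to 0.10 and -0.051 to 0.39. The titles carry mouse numbers, and those of SKM-KO and C fall into 3 neighbouring pairs, though no label says that neighbours share a litter or day. Arrays of a pair deviated together over all probe sets (r = 0.482, 0.105 and 0.26), but C 2 correlated better with SKM-KO 3 (0.365) than with its neighbour. With these pairs as a block, added after seeing the data, 3 probe sets and 0 members were called in SKM-KO minus C. For SKM-Tg minus Wt, no paired analysis was possible because the numbers form no such pairs across these groups of 4 and 3. Dim probe sets, Vdr among them, lie near background, and only 3 or 4 arrays a group limit every interval.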
